A study of Mus musculus with 2 samples.

Results

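The constitutive proteasome subunits are the 20S core genes with Psma and Psmb symbols and the 19S regulatory genes with Psmc and Psmd symbols, described here in single cells of the mouse heart. Members were all gene symbols of these 4 families other than the immune subunits Psmb8, Psmb9 and Psmb10, with at least 20 unique molecular identifiers (UMIs, counted RNA molecules) over both libraries. The rule kept 35 of the 36 matching symbols, 15 core and 20 regulatory, out of 22441 symbols in the matrices, of which 16386 had a UMI. Just inside the minimum was Psma8, an alpha subunit known from the male germ line, with 25 UMIs. Psmb11, the thymus-specific catalytic subunit, was just outside it with 1 UMI.

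The 20S core is a barrel of stacked rings. Alpha subunits form the outer, gated rings, and beta subunits form the inner rings, where Psmb5, Psmb6 and Psmb7 carry the proteolytic sites. The 19S particle caps the barrel: its base holds the ATPases Psmc1 to Psmc6, which unfold substrates, and its lid holds Psmd14, which removes ubiquitin. All cells need the complex, and interferon signalling can replace the catalytic beta subunits by Psmb8, Psmb9 and Psmb10, which favour peptides for MHC class I. Nfe2l1, a transcription factor, is known to drive many subunit genes together when proteasome activity is short.

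The hearts came from C57/B6 mice that overexpress adenylyl cyclase 8 (AC8), the enzyme that makes cyclic AMP, and from wild type C57/B6 littermates. By the title of the series the overexpression is specific to cardiomyocytes, a cell type outside the sorted fractions. Each library is labelled as pooled from mice of 1 genotype, with no treatment, and the number and age of the mice are not given in the sources used here. Sorted CD45+CD31-, CD45-CD31- and CD45-CD31+ cells, the gates for leukocytes, mesenchymal cells and endothelial cells, were mixed in equal numbers and run on the 10x platform, so cardiomyocytes themselves were not a sorted fraction and class sizes follow the mixing.

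The deposited matrices held 5800 wild type and 4867 AC8 cells with medians of 1344 and 1832 UMIs per cell. After filtering, 3546 and 3578 cells were kept. Of 19 clusters, 18 were named from markers, giving 9 classes, and every listed marker of a class was higher in it than in the other named cells of both libraries. The same markers gave the names, so this is not a separate check of them. Fibroblast-like (1901 wild type and 1531 AC8 cells), macrophage-like (580 and 721), endothelial-like (622 and 572) and B cell-like (113 and 294) cells are described in full, and smaller classes by their sums. Adcy8, the overexpressed gene, had 0 UMIs in the wild type and 1 UMI in the AC8 library, so it does not check the labels. With 1 library per genotype no difference between genotypes has a replicate check, and no test was made. Each ratio carries an exact 95% interval that covers counting error only. Levels are UMIs of a gene divided by all UMIs of the class and library, scaled to counts per 1e+06 (CPM). Apart from the pairs of an immune and a constitutive subunit, the genes were compared across classes and libraries, not with each other.

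Promoter sequences show which members carry a site type of the Nfe2l1 family next to their start. RefSeq windows on GRCm38.p6 were found for 28 of the 35 members (30 windows, 27 of them with their last 20 bases in an annotated transcript of the gene), and the 250 bases before the start were searched on both strands for TGACNNNGC or GCNNNGTCA, the core of the antioxidant response element. Its TGAC end is also shared with the cyclic AMP response element. The motif stood in 2 of 11 core and 3 of 17 regulatory genes, 17.9% of members, beside 11.5% of all 27025 genes in the table. CCAAT or ATTGG, the box bound by NF-Y, stood in 6 core and 5 regulatory genes, 39.3% of members beside 37.5% of all genes. Both are matches of letters only, and 0 members held both motifs. The stretches around the 5 antioxidant response element cores are shown because they include Psmb5 and Psmb6, the catalytic subunits with ratios above 1 in the AC8 library in all 4 large classes, and Psmc6, with ratios below 1 in each of them. Whether the motif bears on these ratios was not tested. Capitals mark the motif, and each stretch is written 5′ to 3′ on the strand of its gene.
Psmb5 (chr14:54618004-54618072, minus strand): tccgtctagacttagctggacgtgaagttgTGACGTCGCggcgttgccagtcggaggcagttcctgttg
Psmb6 (chr11:70525318-70525356, plus strand): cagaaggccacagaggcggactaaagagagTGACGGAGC
Psmd9 (chr5:123228129-123228189, plus strand): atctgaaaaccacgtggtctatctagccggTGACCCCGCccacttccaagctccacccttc
Psmc6 (chr14:45329574-45329635, plus strand): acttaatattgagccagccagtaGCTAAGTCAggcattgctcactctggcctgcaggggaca
Psmd12 (chr11:107479278-107479319, plus strand): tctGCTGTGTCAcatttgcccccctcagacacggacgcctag
The motif began 47 bases before the start of Psmb5, 9 before Psmb6 and 31 before Psmd9, but 227 before Psmc6 and 247 before Psmd12. The table held no window for Psma8, Psmb1, Psmb2, Psmb7, Psmc3, Psmd3 and Psmd7.

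Among the classes of the wild type library, subunit RNA was lowest in macrophage-like and T cell-like cells. In wild type cells the summed core level was 2093 CPM (2050 to 2136) in fibroblast-like, 2318 (2220 to 2418) in endothelial-like, 2005 (1789 to 2240) in B cell-like and 1448 (1384 to 1514) in macrophage-like cells. Of the smaller classes, the sum was 2451 in Schwann-like, 2407 in dendritic-like, 2245 in NK cell-like, 2054 in mural-like and 1544 in T cell-like cells. Macrophage-like cells had an interval below those of the other classes except T cell-like cells (1279 to 1848), while neighbours higher in the order overlapped.

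Regulatory subunits ranked much the same. Wild type sums were 1744 CPM (1660 to 1831) in endothelial-like, 1648 (1610 to 1687) in fibroblast-like, 1294 (1122 to 1486) in B cell-like and 1090 (1035 to 1147) in macrophage-like cells. The small Schwann-like class stood above them with 2536 CPM (2102 to 3032), and held 2947 CPM (2426 to 3546) in the AC8 library.

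In the AC8 library the order of the 4 large classes was the same for the regulatory sums, while macrophage-like and B cell-like cells changed places for the core. Endothelial-like cells held 2031 CPM (1939 to 2126), fibroblast-like 1739 (1700 to 1778), B cell-like 1470 (1351 to 1597) and macrophage-like 1384 (1339 to 1429), the last pair overlapping. Core sums were 2494 CPM (2392 to 2600) in endothelial-like, 2407 (2361 to 2453) in fibroblast-like, 1998 (1945 to 2053) in macrophage-like and 1906 (1770 to 2050) in B cell-like cells. Macrophage-like over fibroblast-like cells gave a core ratio of 0.692 (0.658 to 0.727) in the wild type and 0.83 (0.803 to 0.858) in the AC8 library. Regulatory ratios were 0.661 (0.625 to 0.700) and 0.796 (0.765 to 0.828). All genes shifted the same way, with a median log2 ratio of -0.24 in the wild type and -0.17 in the AC8 library, and median-ratio scaling, which takes most of that shift away, gave core ratios of 0.855 and 0.974 and regulatory ratios of 0.818 and 0.934.

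**Figure D1:**
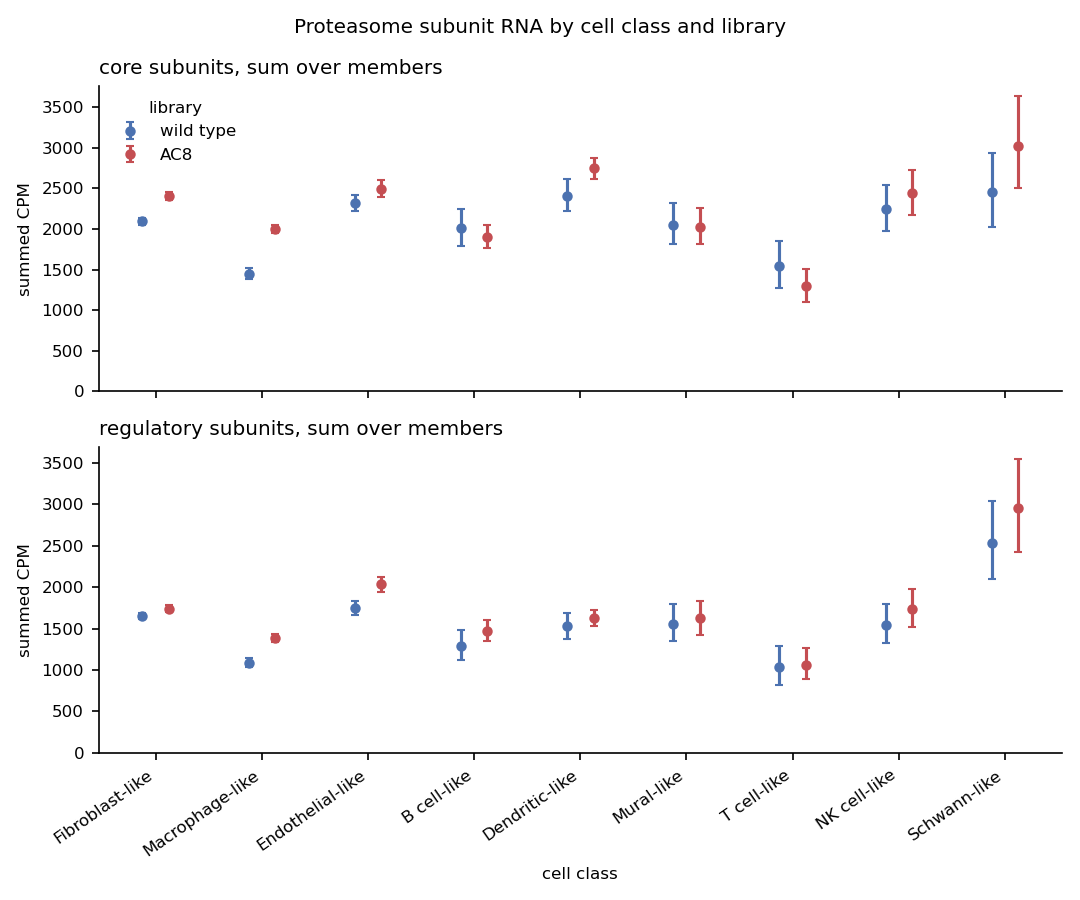
Summed CPM of the core (upper panel) and regulatory (lower panel) members in each cell class, wild type library in blue and AC8 library in red, with 95% counting intervals and 1 library per point. Macrophage-like cells sit at 1448 and 1998 core CPM, below fibroblast-like cells at 2093 and 2407 in the same libraries.

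Single members followed these sums. Against all other named cells of the wild type library, 24 of 34 members were at least 1.3-fold lower in macrophage-like cells, where 43.5% of all counted genes were that much lower. In the AC8 library it was 9 of 34 members, beside 39% of all genes, a share below the background. The median log2 ratio of core members was -0.48 in the wild type and -0.22 in the AC8 library, that of regulatory members -0.47 and -0.28, and that of all genes -0.28 and -0.23. The AC8 medians of the members were thus close to that of all genes. In endothelial-like cells 6 of 34 members in the wild type and 10 of 34 in the AC8 library were at least 1.3-fold higher than in other cells, beside 26.4% and 28.7% of all genes.

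Some subunits had a class pattern of their own in both libraries. Psmd7, a lid subunit that partners Psmd14, had the lowest macrophage-like log2 ratio to other cells, at 74.5 against 150 CPM in the wild type and 88 against 150 in the AC8 library. Psmb1, a beta subunit with no proteolytic site, was next, at 124 against 208 and 144 against 228 CPM. Both were high elsewhere: Psmb1 stood at 256 against 183 and 271 against 197 CPM in endothelial-like cells, and Psmd7 at 151 against 115 and 164 against 105 CPM in fibroblast-like cells. The ATPase Psmc1 was the member most raised in endothelial-like cells in relative terms, at 93 against 61.2 CPM in the wild type, a ratio of 1.52 (1.19 to 1.93), and 120 against 67.4 in the AC8 library, 1.77 (1.43 to 2.18). Psmd9, a chaperone of base assembly, was the most fibroblast-weighted member, at 51.6 against 32 and 49.2 against 34.2 CPM, and the alpha subunits Psma1 (0.907 and 0.817 against other cells) and Psma6 (0.942 and 0.955) the least. In B cell-like cells the scaffold subunit Psmd1 was the lowest, at 38.4 against 81.4 and 36.8 against 71.3 CPM, and the ubiquitin receptor Psmd4 the highest, at 122 against 84.6 and 129 against 88.6 CPM, on 6 to 49 UMIs. Next to them were Psma4, at 64.1 against 108 and 50 against 109 CPM, and Psma1, at 135 against 86 and 153 against 112 CPM. Psma8 was the only member not counted in any large class. Of its UMIs, 7 wild type and 4 AC8 UMIs came from macrophage-like cells, 5.22 and 1.52 CPM.

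The comparison between genotypes asks how the neighbours of cardiomyocytes differ when those carry the transgene. In macrophage-like cells the constitutive proteasome was higher in the AC8 library almost throughout. Core RNA summed to 1448 CPM in the wild type and 1998 CPM in AC8 cells, a ratio of 1.38 (1.31 to 1.45), and regulatory RNA to 1090 and 1384 CPM, a ratio of 1.27 (1.19 to 1.35). Of 34 counted members, 31 had a ratio above 1, where 48.2% of all counted genes did, and 18 had an interval above 1. The share of all genes with such an interval is not given here. A ratio at least 1.3-fold higher (on the CPM + 10 scale used for counting) was seen for 15 members, 9 core and 6 regulatory, where 14.8% of all 8460 counted genes were that much higher, and for 0 members lower, where 16.9% of all genes were. With a minimum of 2000 UMIs per cell, 9 members were higher, and the share of all genes there is not given here. The median log2 ratio was 0.42 for core and 0.25 for regulatory members, against -0.02 for all genes.

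The catalytic subunits had the highest ratio of the core groups, but not all 3 shared it. Psmb5, the chymotrypsin-like subunit, had 94.6 CPM in the wild type and 168 CPM in AC8 macrophage-like cells, a ratio of 1.78 (1.45 to 2.18). Psmb6, the caspase-like subunit, had 124 and 206 CPM, a ratio of 1.66 (1.4 to 1.99). Psmb7, the trypsin-like subunit, had 43.2 and 39.4 CPM, a ratio of 0.913 (0.656 to 1.28). The first pair thus had intervals above 1, and that of Psmb7 includes 1. The 3 together gave a ratio of 1.58 (1.4 to 1.79).

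Alpha subunits, which gate the barrel, summed to 753 and 1039 CPM, a ratio of 1.38 (1.28 to 1.48). Psma2 led with 116 and 184 CPM, a ratio of 1.58 (1.32 to 1.9), followed by Psma1 and Psma3, each at 1.49. Psma4 stood at 1.39 and Psma7 at 1.33, while Psma5 (1.29) and Psma6 (1.08) were under the fold. The beta subunits without a proteolytic site had a ratio of 1.26 (1.14 to 1.39), with Psmb2 at 1.47 and Psmb3 at 1.35, Psmb1 at 1.16, and Psmb4 at 0.975.

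In the base, the ATPase Psmc4 had the largest ratio of any counted member in these cells, 32.8 against 68.3 CPM, 2.08 (1.49 to 2.96). Psmc5 stood at 1.38, whereas Psmc1 stood at 1 (0.744 to 1.36) and Psmc6 was at 72.3 and 64.1 CPM, 0.887 (0.687 to 1.15), the lowest of the counted members. Psmc2 (1.32) and Psmc3 (1.22) lay between. The scaffold and ubiquitin receptor group of Psmd1, Psmd2 and Psmd4 gave 1.14 (0.981 to 1.33), an interval that includes 1, although Psmd4 alone stood at 1.33 (1.02 to 1.74). Psmc2, Psmd4 and the chaperone Psmd9 passed 1.3-fold as plain ratios only.

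The lid gave 474 and 629 CPM, a ratio of 1.33 (1.21 to 1.46). Psmd8, a small lid subunit, had 99.1 and 164 CPM, a ratio of 1.65 (1.36 to 2.02), Psmd3 31.3 and 46.6 CPM, 1.49 (1.04 to 2.17), and Psmd13 47.7 and 67.9 CPM, 1.42 (1.06 to 1.92). Psmd6, Psmd7, Psmd11, Psmd12 and Psmd14 ranged from 1.15 to 1.2, each with an interval that includes 1. Of the base assembly chaperones, Psmd10, also known as gankyrin, had 17.1 and 32.2 CPM, a ratio of 1.88 (1.18 to 3.12), on 23 and 85 UMIs, with Psmd9 at 1.33 and Psmd5 at 1.04, both with an interval that includes 1.

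**Figure D2:**
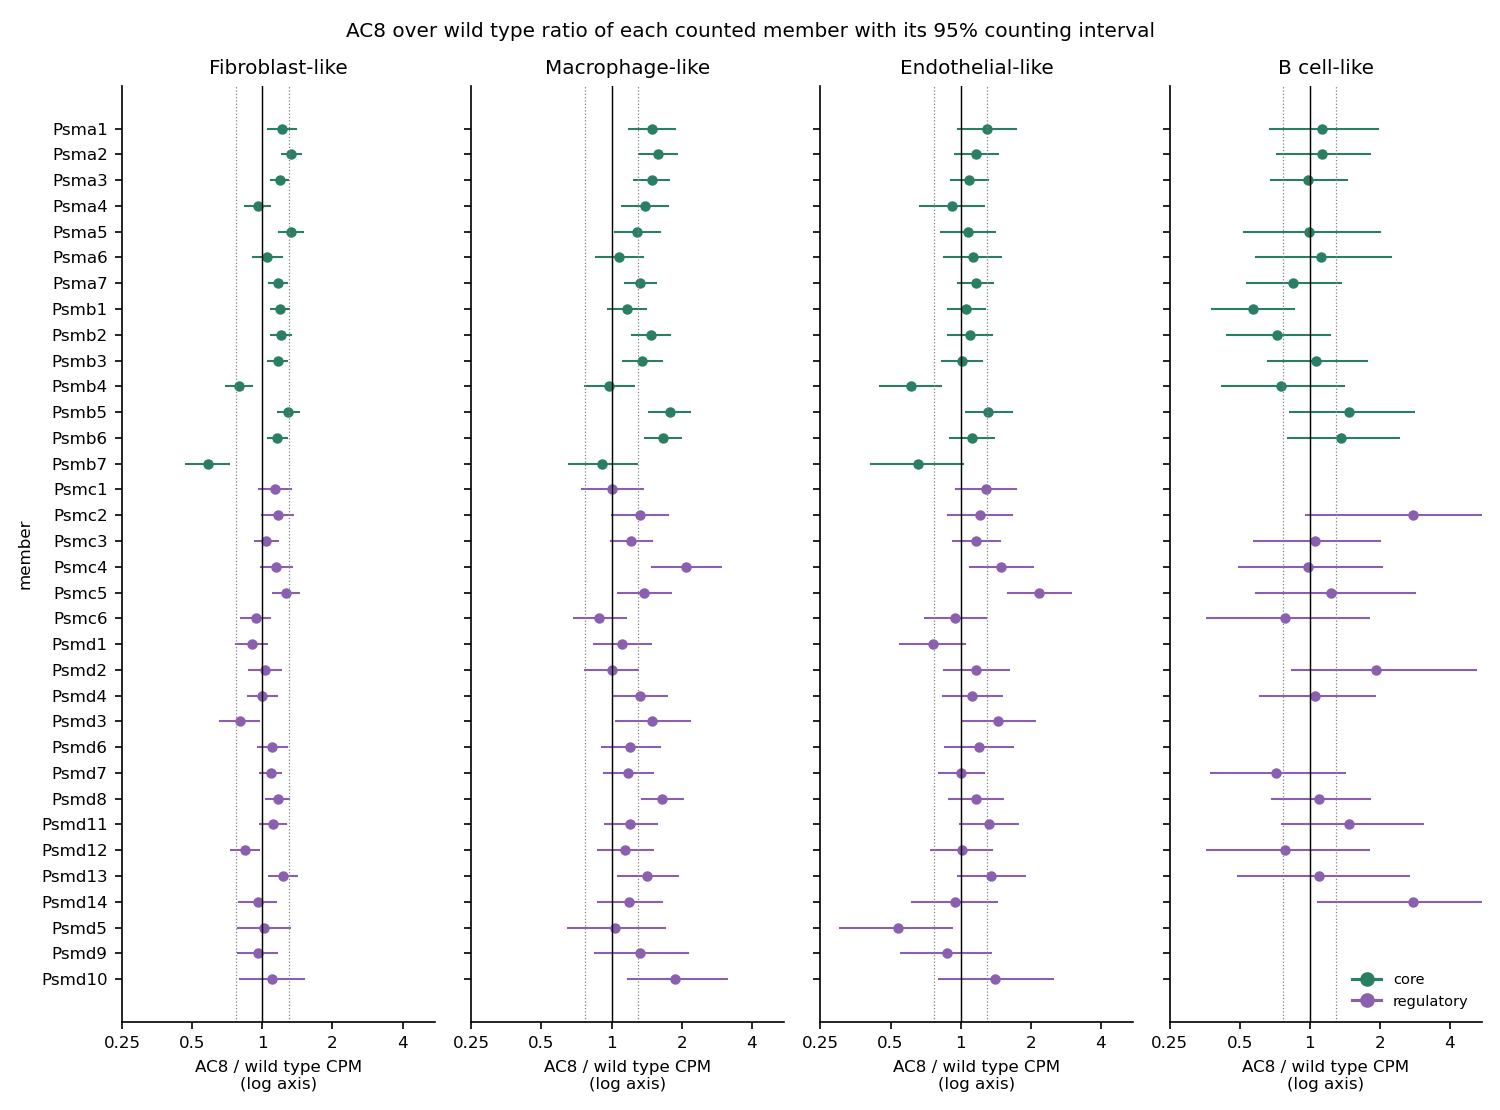
Ratio of CPM in the AC8 over the wild type library for each counted member (rows) in the 4 large classes (panels, log axis), core in green and regulatory in purple, with 95% counting intervals, cut at the axis for Psmc2 and Psmd14 in B cell-like cells. Dotted lines mark 1.3-fold in either direction. Psmb4 and Psmb7 lie left of the line at 1 in each panel that shows them, from 0.583 to 0.975.

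The make-up of the macrophage-like class differed between the libraries, and the size of the ratio moved with it. A cluster with Spp1, Trem2 and Gpnmb among its 10 leading genes held 147 AC8 cells and 7 of the wild type, and its median depth was 5156 UMIs in the AC8 library. Its AC8 cells held 2682 core CPM (2573 to 2795), 1.6-fold (1.51 to 1.69) over the other AC8 macrophage-like cells, and 1741 regulatory CPM, 1.43-fold (1.34 to 1.53) over them. All 34 counted members were above 1 in that comparison and 21 were at least 1.3-fold higher, beside 15.3% of all genes. The share of all genes above 1 is not given here, and the median log2 ratio was 0.44 for members and -0.15 for all genes. Psmb6 was at 347 against 140 CPM, 2.48-fold (2.09 to 2.95), and Psmd8 at 256 against 120 CPM, 2.13-fold (1.76 to 2.59).

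Without that cluster, left out after seeing the data, the core ratio of AC8 over wild type was 1.17 (1.1 to 1.24) and the regulatory ratio 1.14 (1.07 to 1.22). Above 1 were 25 of 34 members, and the median log2 ratio was 0.19 for members and 0.02 for all genes. At least 1.3-fold higher were 7 of 34 members (Psma1, Psma3, Psmb2, Psmb5, Psmc4, Psmc5 and Psmd10) beside 12.3% of all genes, and 1 was that much lower, Psmb7, beside 11.7%. Psmb5 was then at 93.5 and 136 CPM, 1.45 (1.17 to 1.82), and Psmc4 at 33 and 63 CPM, 1.91 (1.33 to 2.78), whereas Psmb6 was at 122 and 140 CPM, 1.15 (0.937 to 1.41). Psmb7 and Psmb4 were lower in the AC8 cells that remained, 44.5 and 30.1 CPM for Psmb7, 0.677 (0.458 to 0.998), and 79 and 59.1 CPM for Psmb4, 0.748 (0.565 to 0.991). Within the cluster led by Cbr2, Lyve1 and Folr2 (265 and 355 cells) the core ratio was 1.16 (1.07 to 1.25) and the regulatory ratio 1.08 (0.987 to 1.17). In the remaining cluster, led by C1qa and C1qc (308 and 219 cells), they were 1.2 (1.1 to 1.31) and 1.16 (1.03 to 1.3).

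Depth per cell also moved with the class ratio, with medians of 1997 UMIs in wild type and 3219 in AC8 macrophage-like cells. Among cells with 1000 to 2000 UMIs the core ratio was 0.965 (0.834 to 1.11). It was 1.19 (1.09 to 1.28) from 2000 to 4000 UMIs and 1.39 (1.25 to 1.55) above 4000, where 42 wild type and 243 AC8 cells were compared. Regulatory ratios in the same bins were 1.14, 1.03 and 1.1, each with an interval that includes 1. With every cell thinned to 1000 UMIs, the ratios were 1.16 (1.06 to 1.27) for core and 1.16 (1.04 to 1.29) for regulatory members, and Psma7 turned to 0.976. Stress genes of dissociation summed to 66562 CPM in wild type macrophage-like cells and 56497 CPM in AC8 ones, with 11 of 25 at least 1.3-fold lower and 0 higher. The 6 neutrophil markers summed to 482 and 114 CPM and the 5 monocyte markers to 108 and 192 CPM, with 0 of either list at 0 in both libraries. The 4 red cell markers summed to 173 and 4.55 CPM in these cells. T cell markers summed to 128 and 58 CPM and NK cell markers to 95.4 and 31.1 CPM. The part of these differences in the ratio was not tested.

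**Figure D3:**
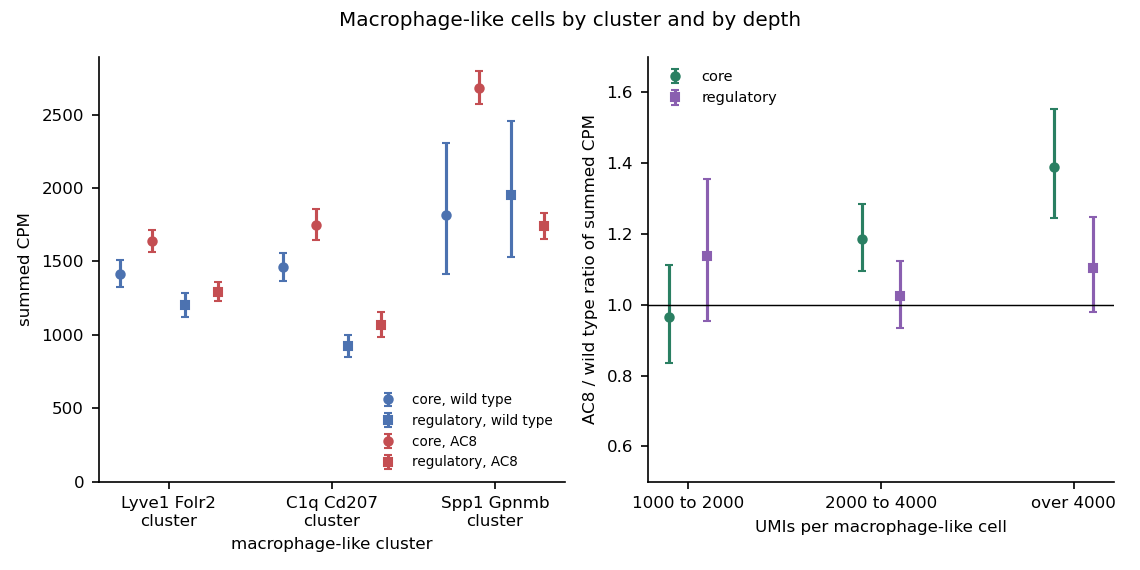
Left, summed core (circles) and regulatory (squares) CPM in the 3 macrophage-like clusters, wild type in blue and AC8 in red. Right, AC8 over wild type ratio of the summed CPM by UMIs per cell, core in green and regulatory in purple. Bars are 95% counting intervals, and the core ratio goes from 0.965 in the shallowest to 1.39 in the deepest cells.

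In fibroblast-like cells the difference was small and mostly in the core. Core RNA summed to 2093 CPM in the wild type and 2407 CPM in AC8 cells, a ratio of 1.15 (1.12 to 1.18), and regulatory RNA to 1648 and 1739 CPM, 1.05 (1.02 to 1.09). Of 34 counted members 24 had a ratio above 1, beside 42% of all counted genes. Only Psma2 and Psma5 were at least 1.3-fold higher, beside 4.88% of all 10623 genes, and only Psmb7 that much lower, beside 12.5%. The count of higher members was 0 without doublet removal, 1 with all deposited cells, 4 with median-ratio scaling and 5 with thinning. The share of all genes under each of these is not given here. The median log2 ratio was 0.22 for core members, 0.07 for regulatory members and -0.05 for all genes.

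Psma2 had 178 CPM in the wild type and 236 CPM in AC8 fibroblast-like cells, a ratio of 1.33 (1.21 to 1.46), and Psma5 108 and 144 CPM, 1.33 (1.18 to 1.5). Psmb5 was close behind at 155 and 200 CPM, 1.29 (1.17 to 1.43), and Psmb6 stood at 181 and 210 CPM, 1.16 (1.05 to 1.28). The third catalytic subunit went the other way. Psmb7 had 56.3 CPM in the wild type and 32.8 CPM in AC8 cells, a ratio of 0.583 (0.471 to 0.718), on 247 and 144 UMIs. Psmb4, a beta subunit without a proteolytic site, had 130 and 104 CPM, 0.795 (0.701 to 0.9), and the lid subunits Psmd3 and Psmd12 had ratios of 0.799 (0.658 to 0.968) and 0.842 (0.734 to 0.966). These 4 were the only members with an interval below 1, while 13 had one above 1, counts not given here for all genes. Over the alternatives run, the fibroblast-like ratio of Psmb7 ranged from 0.532 to 0.633.

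Among the regulatory members of fibroblast-like cells, Psmc5 (1.26), Psmd13 (1.22) and Psmd8 (1.16) had intervals above 1, and the other 15 had intervals that include 1. The core ratio was not even over clusters: it ran from 1.18 to 1.23 in 3 of the 6 fibroblast-like clusters, was 1.07 (0.983 to 1.16) in another, and was 0.95 (0.88 to 1.03) and 0.96 (0.732 to 1.25) in the others. By depth it was 1.01 (0.945 to 1.08) at 1000 to 2000 UMIs, 1.17 (1.13 to 1.21) at 2000 to 4000 and 1.19 (1.1 to 1.29) above. Regulatory ratios in the same bins were 1.04 (0.959 to 1.13), 1.05 (1.01 to 1.1) and 0.926 (0.853 to 1.01). By cluster the regulatory ratios ran from 1.07 to 1.14, except for 0.961 (0.878 to 1.05) and 0.963 (0.874 to 1.06). Stress genes summed to 51008 and 43630 CPM, with 11 of 25 at least 1.3-fold lower in the AC8 library, and their part was not tested.

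In endothelial-like cells as a whole the regulatory sum had the higher ratio, with an interval that overlaps that of the core. Regulatory RNA summed to 1744 CPM in the wild type and 2031 CPM in AC8 cells, a ratio of 1.16 (1.09 to 1.25), and core RNA to 2318 and 2494 CPM, 1.08 (1.01 to 1.14). At least 1.3-fold higher were 4 of 34 members, near the 12.8% of all 7343 genes, and 3 were that much lower, beside 14.9%. Median log2 ratios were 0.12 for core, 0.21 for regulatory members and -0.02 for all genes. Of 34 members, 26 had a ratio above 1, beside 47.8% of all genes. Among cells with 1000 to 2000 UMIs the ratios were 1.2 (1.11 to 1.3) for regulatory and 1.04 (0.974 to 1.12) for core members. The order turned in the next bin, from 2000 UMIs, on 72 and 86 cells. There the core ratio was 1.17 (1.03 to 1.33) and the regulatory ratio 1.05 (0.913 to 1.22), with overlapping intervals. In the cluster of 384 and 379 cells, regulatory and core ratios were 1.21 (1.11 to 1.31) and 1.13 (1.05 to 1.22). In that of 212 and 165 cells they were 1.09 (0.964 to 1.23) and 0.977 (0.879 to 1.09), each with an interval that includes 1.

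The base ATPases had the highest ratio of the role groups, with 580 CPM in the wild type and 763 CPM in AC8 endothelial-like cells, 1.32 (1.17 to 1.48). Psmc5 had 68.2 and 148 CPM, a ratio of 2.18 (1.6 to 2.98), and Psmc4 77.9 and 116 CPM, 1.49 (1.1 to 2.04). The lid subunits Psmd3, at 61.7 and 89.7 CPM, 1.45 (1.02 to 2.08), and Psmd13, at 73.6 and 99.6 CPM, 1.35 (0.978 to 1.88), completed the higher members. On the lower side were Psmd5, a base assembly chaperone, at 45.4 and 24.4 CPM, 0.536 (0.305 to 0.919), Psmb4, at 129 and 78.6 CPM, 0.611 (0.448 to 0.826), and Psmb7, at 57.3 and 37.6 CPM, 0.656 (0.414 to 1.03). Psmb5 had 150 and 198 CPM, 1.32 (1.05 to 1.66), and Psmb6 179 and 200 CPM, 1.12 (0.904 to 1.39). The 4 red cell markers summed to 2368 CPM in wild type endothelial-like cells and 667 CPM in AC8 ones, and the 8 mural markers to 619 and 256 CPM, with 0 of either list at 0 in both libraries. Stress genes summed to 42543 and 47908 CPM, with 5 of 25 at least 1.3-fold higher (Ier2, Ier3, Junb, Nr4a1 and Socs3) and 3 lower. The part of these differences in the ratios was not tested. Psmb5 (1.32), Psmd10 (1.41) and Psmd11 (1.32) passed 1.3-fold as plain ratios but not on the CPM + 10 scale, so they are not among the 4. The count was 7 with all deposited cells, with median-ratio scaling and with a pseudocount of 1 CPM, where the shares of all genes are not given here.

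B cell-like cells had the fewest UMIs of the 4 large classes, 156079 in wild type and 380280 in the AC8 library, and gave 25 counted members. The core ratio was 0.951 (0.832 to 1.09), from 2005 to 1906 CPM, and the regulatory ratio 1.14 (0.965 to 1.34), so neither sum differed by more than its counting error. At least 1.3-fold higher were 6 of 25 members (Psmb5, Psmb6, Psmc2, Psmd2, Psmd11 and Psmd14), beside 19.4% of all 2899 genes, and 3 were that much lower (Psmb1, Psmb2 and Psmd7), beside 22%. With all deposited cells 11 members were higher and 1 lower, where the number counted and the shares of all genes are not given here. Psmd14, the lid enzyme that removes ubiquitin, had 5 wild type and 34 AC8 UMIs, a ratio of 2.79 (1.09 to 9.14). Psmb1 had 282 and 160 CPM, 0.569 (0.38 to 0.858). These were the only counted members whose interval did not include 1. Markers of other cells also differed in this class: the 8 endothelial markers summed to 1557 and 234 CPM, with 0 of them at 0 in both libraries, and the 8 dendritic markers to 1448 and 2156 CPM, with 6 of them at 0 in both. Stress genes summed to 17132 and 20882 CPM, with 5 of the 21 counted at least 1.3-fold higher and 7 lower. The part of these differences was not tested. Psmb5 stood at 96.1 and 142 CPM, 1.48 (0.822 to 2.82), Psmb6 at 122 and 166 CPM, 1.36 (0.804 to 2.41), and Psmb7, with 18 UMIs in all, was not counted. Psmc2 rested on 4 and 27 UMIs, 2.77 (0.965 to 10.9).

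**Figure D4:**
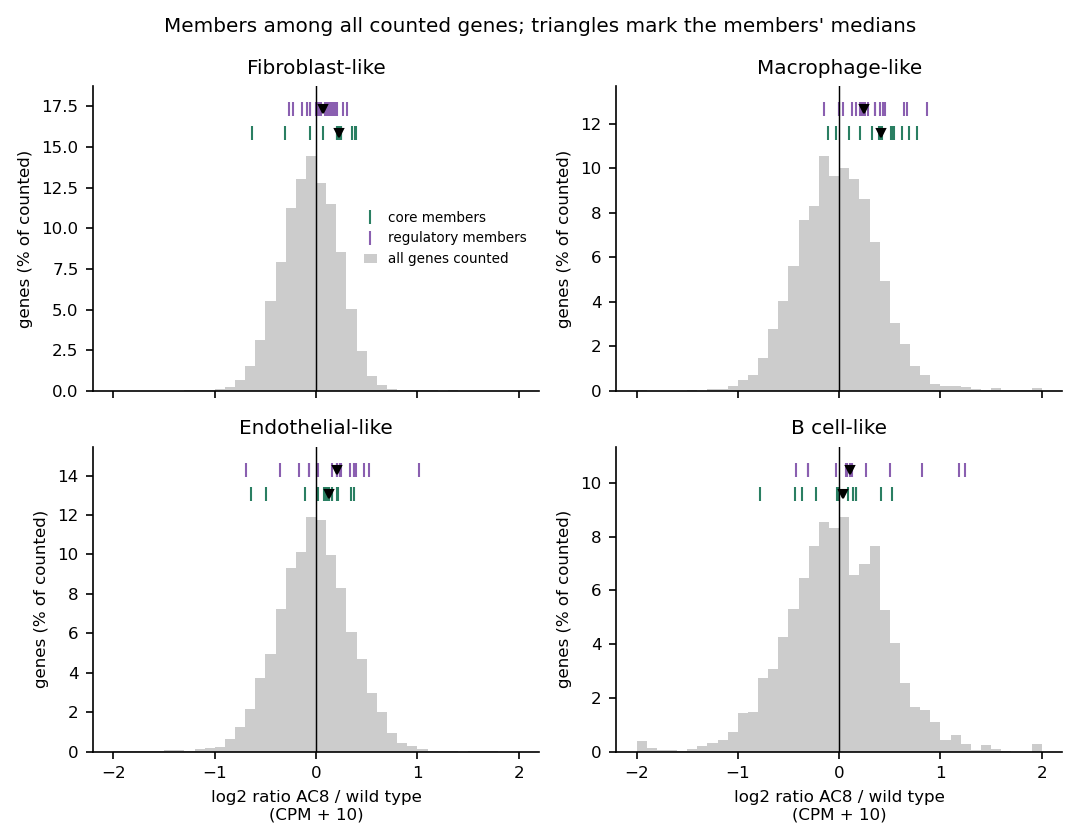
Share of all counted genes (vertical axis, percent, grey bars) by log2 ratio of AC8 over wild type (CPM + 10), with core members as green and regulatory members as purple ticks and their medians as black triangles, values beyond the axis placed in the end bins. In macrophage-like cells the medians are 0.42 and 0.25, in fibroblast-like cells 0.22 and 0.07.

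Seen across classes, many members kept their side of 1, and the share of all genes that did so is not given here. Psmb4 was below 1 in all 4 large classes and Psmb7 in each of the 3 where it was counted, as was Psmc6 in all 4, with ratios of 0.784 to 0.948 whose intervals include 1. Psmb5 was above 1 in all 4, with an interval above 1 in 3. Psmb6, Psma1, Psma2, Psma6, Psmb3, Psmc2, Psmc3, Psmc5, Psmd2, Psmd8, Psmd11 and Psmd13 were also above 1 in all 4. Psmd2 was so by little in macrophage-like cells, at a ratio of 1.001 (0.772 to 1.3). In dendritic-like cells Psmb5 (1.26), Psmb6 (1.29) and Psmb7 (0.84) had intervals that include 1, and Psmb4 was at 1.36 (0.863 to 2.21), on the other side from the large classes. Psmb7 was at 70.8 and 96.5 CPM in the mural-like cells, on 9 and 15 UMIs. The same pair of libraries enters every class, so these counts are not separate evidence from each class. Named pseudogenes exist for Psmb5, Psmb6 and Psmb7 in the annotation, and Psma2 and Psmd1 overlap another coding gene on their strand, so reads of these 5 members could have been assigned otherwise in part.

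The immune subunits replace the catalytic members, and they are given as UMIs per UMI of the constitutive partner. Psmb8 per Psmb5 was 0.518 (0.454 to 0.59) in wild type fibroblast-like cells, 2.24 (1.81 to 2.79) in macrophage-like, 1.88 (1.53 to 2.33) in endothelial-like, 2.87 (1.56 to 5.56) in B cell-like and 2.93 (2.06 to 4.24) in dendritic-like cells. In the AC8 library the values were 0.556, 2, 1.97, 3.09 and 2.78 in the same order, each inside the wild type interval. In mural-like cells it was 0.333 (0.129 to 0.767) in the wild type and 0.138 (0.0352 to 0.393) in the AC8 library, on 8 and 4 UMIs of Psmb8. NK cell-like cells had 5.73 (2.99 to 12.1) and 2.76 (1.65 to 4.79), on 11 and 21 UMIs of Psmb5. T cell-like and Schwann-like cells went the other way, from 2.44 to 4 and from 0.625 to 1.57. The intervals of the libraries overlapped in each of these small classes. In macrophage-like cells Psmb8 was at 212 and 337 CPM, 1.59 (1.39 to 1.82), beside the 1.78 of Psmb5.

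Psmb9 per Psmb6 in fibroblast-like cells was 0.109 (0.0859 to 0.136) in the wild type and 0.151 (0.126 to 0.181) in the AC8 library, and in mural-like cells it was 0.182 and 0.0323, on 4 UMIs and 1 UMI of Psmb9. In macrophage-like cells it was 0.747 (0.587 to 0.948) and 0.547 (0.473 to 0.631), where Psmb9 itself was at 92.4 and 113 CPM and Psmb6 was the one with the larger ratio. Of the 4 large classes, Psmb10 per Psmb7 differed most between libraries in fibroblast-like and endothelial-like cells. It was 1.24 (1.04 to 1.47) and 2.69 (2.21 to 3.28) in fibroblast-like and 2.83 (2.06 to 3.95) and 6.24 (4.33 to 9.24) in endothelial-like cells, with separate intervals in both. In macrophage-like cells it was 2.29 (1.67 to 3.18) and 3.02 (2.41 to 3.81), with overlapping intervals, and in B cell-like cells 3.33 in both libraries, on 20 and 6 UMIs in the wild type and 40 and 12 in the AC8 library. In NK cell-like cells it went down, from 5 (1.67 to 20.1) to 2 (0.427 to 12.4), on 4 and 3 UMIs of Psmb7. Psmb10 was at 69.8 and 88.2 CPM in fibroblast-like cells, 1.26 (1.09 to 1.47), and at 162 and 235 CPM in endothelial-like cells, 1.45 (1.17 to 1.79), so both the higher Psmb10 and the lower Psmb7 entered the pair.

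**Figure D5:**
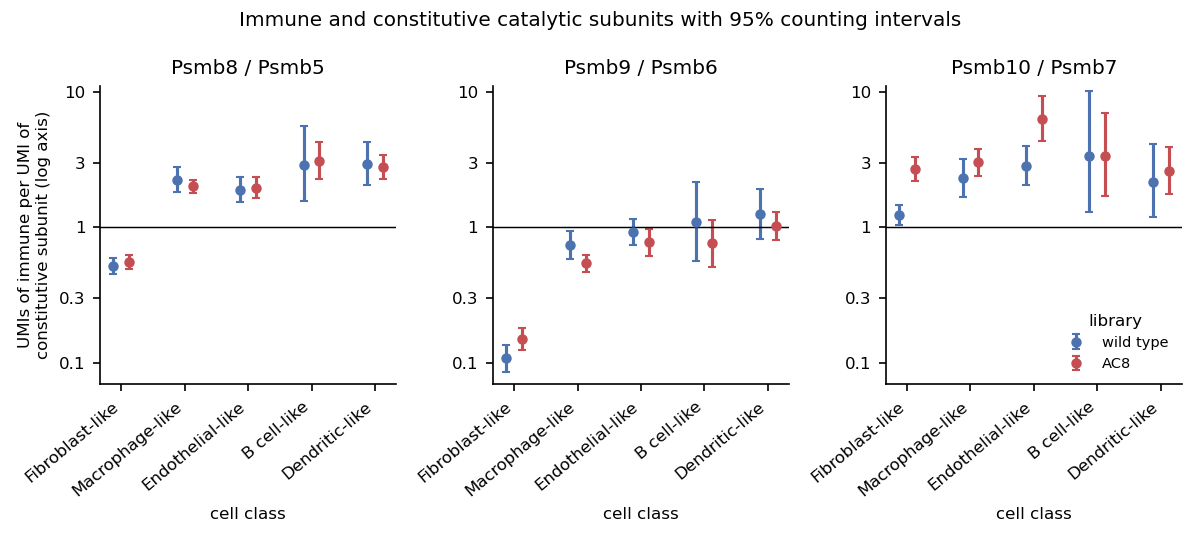
UMIs of each immune subunit per UMI of the constitutive subunit it replaces (log axis), by cell class, wild type in blue and AC8 in red, with 95% counting intervals. Psmb10 per Psmb7 goes from 1.24 to 2.69 in fibroblast-like and from 2.83 to 6.24 in endothelial-like cells, while Psmb8 per Psmb5 overlaps between the libraries in every class shown.

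Genes that surround the proteasome were taken as lists. Of the 19S subunits outside the symbol rule, Sem1 stood at 440 and 623 CPM in macrophage-like cells, 1.42 (1.29 to 1.56), and Adrm1, a ubiquitin receptor, at 55.9 and 75.8 CPM, 1.36 (1.04 to 1.79), and both passed 1.3-fold there, 2 of 2. Assembly chaperones outside the rule had 0 of 6 at least 1.3-fold higher and 0 of 6 lower in fibroblast-like, macrophage-like and endothelial-like cells. Pomp, which matures the core, stood at 152 and 193 CPM in macrophage-like cells, 1.27 (1.08 to 1.5), and in fibroblast-like cells at 166 and 181 CPM, 1.09 (0.982 to 1.2). Nfe2l1 was at 131 and 125 CPM in fibroblast-like, 74.5 and 80.4 in macrophage-like, 216 and 261 in endothelial-like and 64.1 and 57.9 CPM in B cell-like cells, each with an interval that includes 1. Of the 6 listed regulators of subunit genes, 0 were at least 1.3-fold higher in fibroblast-like, macrophage-like or endothelial-like cells, and 2 of the 4 counted were in B cell-like cells, where 19.4% of all genes were. They were the NF-Y subunits Nfyb, 1.58 (0.673 to 4.31), and Nfyc, 2.46 (0.946 to 8.13), both with an interval that includes 1. Nfe2l2 was lower in fibroblast-like cells, at 238 and 166 CPM, 0.698 (0.634 to 0.768).

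Activators and shuttles did not share one direction. Psme1, a subunit of the interferon-induced 11S activator, was at 136 and 179 CPM in fibroblast-like cells, 1.32 (1.19 to 1.47), 252 and 295 in macrophage-like cells, 1.17 (1.03 to 1.33), and 378 and 482 in endothelial-like cells, 1.28 (1.11 to 1.47). Psme4, an activator that does not need ubiquitin, was lower in the same classes, at 45.2 and 27.4 CPM in fibroblast-like, 0.606 (0.479 to 0.764), 49.2 and 31.5 in macrophage-like, 0.64 (0.458 to 0.898), and 46.5 and 27.7 in endothelial-like cells, 0.595 (0.348 to 0.996). Psmf1, which inhibits the core, had 17 and 68 UMIs in macrophage-like cells, a ratio of 2.04 (1.18 to 3.7). Shuttle receptors, which carry ubiquitinated proteins to the 19S particle, had a median log2 ratio of -0.30 in fibroblast-like cells, with 2 of 6 at least 1.3-fold lower, and Usp14, the deubiquitinase bound to the base, was at 54.1 and 35.3 CPM there, 0.654 (0.53 to 0.804). Ubb, a gene for ubiquitin itself, was at 2914 and 3966 CPM in endothelial-like cells, 1.36 (1.29 to 1.43).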

How the data were processed

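Single-cell counts of 1 wild type and 1 AC8 library were analysed. The authors deposited UMI counts per gene and cell. Per the labels' protocols these came from Cell Ranger (version not given in the sources used here), and per the submitters' processing notes the build was mm10. Deposited barcodes are running numbers, so barcodes shared between libraries could not be counted. Cells with at least 1000 UMIs, 500 genes and at most 10% mitochondrial UMIs were kept. Doublets (173 wild type and 145 AC8 cells, 0.8% per 1000 deposited cells, by neighbourhood to simulated doublets) were removed. Counts were scaled to 10000 per cell, reduced to 2000 variable genes and 30 principal components, and clustered with leidenalg 0.10.2 at resolution 1.

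Clusters were named from fixed marker lists. The scoring rule was set after seeing the data, including leaving red cell genes out of the leading genes and requiring 3 markers in 10% of cells. One cluster of 36 wild type and 71 AC8 cells, led by S100a9, S100a8 and Ngp, stayed unnamed and was left out. UMIs were summed per class and library. Ratios of CPM have exact intervals from the binomial share of UMIs, and log2 ratios use a pseudocount of 10 CPM. Members and genes with at least 30 UMIs over both libraries in a class were counted, and past 1.3-fold was called higher or lower. Ratio, interval and call were tested on simulated counts. Named in full were the catalytic subunits, the 3 highest and 3 lowest ratios per large class and members past 1.3-fold, and, across classes, the 2 members highest and 2 lowest against other cells in both libraries. Other members are given by group, and Psmb4 and Psmc6 were followed across classes after their values were seen. Members and gene lists were chosen with earlier results of these data known. Alternatives were other cell minimums, no doublet removal, resolutions of 0.6 and 1.6, median-ratio scaling, totals without mitochondrial and ribosomal genes, thinning to 1000 UMIs, medians of members, the top member left out, a pseudocount of 1 CPM and no filter on low counts.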

Additional observations from a re-analysis of the deposited data

How the results depend on the processing

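No paired analysis was possible because each genotype has 1 library. Over the alternatives run, the ratios of the AC8 over the wild type sums ranged over 1.13 to 1.22 (core) and 1.04 to 1.12 (regulatory) in fibroblast-like, 1.05 to 1.09 and 1.16 to 1.2 in endothelial-like and 0.864 to 1.07 and 1.03 to 1.19 in B cell-like cells. All kept their side of 1 except the B cell-like core, whose values lay within its counting interval. Neither B cell-like nor endothelial-like cells gave a value with a minimum of 2000 UMIs, where no cluster was named so. Median-ratio scaling gave 1.22 and 1.12 in fibroblast-like cells. In macrophage-like cells thinning gave 1.16 for core and 1.16 for regulatory members, a minimum of 2000 UMIs and 1000 genes 1.15 for regulatory members, and leaving out the Spp1 and Gpnmb cluster 1.17 and 1.14.

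Macrophage-like over fibroblast-like ratios moved with scaling, since the median log2 ratio of all genes went from -0.24 to -0.03 in the wild type and from -0.17 to -0.02 in the AC8 library. With median-ratio scaling they were 0.855 and 0.818 (wild type core and regulatory) and 0.974 and 0.934 (AC8). With all deposited cells the core ratios were 0.747 and 0.898, but the macrophage-like class was then made up differently. No cluster was named dendritic-like there. A macrophage-like cluster of 91 wild type and 287 AC8 cells had Cd209a and Retnla among its leading genes. The part of this in the ratios was not tested. The minimum of 2000 UMIs gave 0.732 and 0.734 in the wild type, thinning 0.739 and 0.704 in the AC8 library, and leaving out the cluster 0.697 and 0.700.

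Counts at 1.3-fold moved more. Except without the Spp1 and Gpnmb cluster, the members counted and the shares of all genes under each alternative are not given here. These counts are therefore not read against a background. Higher in fibroblast-like cells were 1 with all deposited cells, 0 without doublet removal, 4 with median-ratio scaling and 5 with thinning. Higher in macrophage-like cells were 9 with the minimum of 2000 UMIs and 7 without the cluster, and lower there were 2 with thinning, 1 without the cluster and 1 with no filter on low counts. Higher in endothelial-like cells were 7 with all deposited cells, 7 with median-ratio scaling and 7 with a pseudocount of 1 CPM. In B cell-like cells 11 were higher and 1 lower with all deposited cells. Of the members named, Psma7 in macrophage-like cells turned to 0.976 with thinning. Without the cluster, members above 1 there went from 31 to 25 of 34. Psma6 (0.93), Psmc1 (0.794), Psmd1 (0.982), Psmd2 (0.876), Psmd5 (0.961) and Psmd14 (0.938) turned below 1. The cause was not tested, except that thinning and the filters leave fewer UMIs. Depth limits most the B cell-like cells, where 10 members were not counted.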

Other observations

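Dendritic-like cells, with 75 wild type and 152 AC8 cells, had core sums of 2407 CPM (2218 to 2609) in the wild type and 2744 CPM (2617 to 2875) in the AC8 library, a ratio of 1.14 (1.04 to 1.25). Over NK cell-like cells, which held 2245 and 2441 core CPM, the ratios were 1.07 (0.923 to 1.25) and 1.12 (0.995 to 1.27), both with an interval that includes 1. The regulatory sum of the dendritic-like cells was 1529 and 1625 CPM, 1.06 (0.944 to 1.2), with an interval that includes 1. T cell-like cells were lower, at 1544 CPM (1279 to 1848) and 1294 CPM (1100 to 1511) for the core and 1038 and 1066 CPM for the regulatory members. Macrophage-like over T cell-like cells gave core ratios of 0.938 (0.779 to 1.14) in the wild type and 1.54 (1.32 to 1.82) in the AC8 library. One fibroblast-like cluster, with Fbln1, Dcn and Htra3 as its leading genes and a median of 1521 UMIs, stood below the other fibroblast-like clusters, with a core sum of 851 CPM (720 to 1000) in the wild type library and one of 817 CPM (659 to 1001) in the AC8 library, where the others held 1932 to 2540 CPM. Its regulatory sums were 1213 CPM (1055 to 1389) and 1388 CPM (1180 to 1622), beside 1454 to 1836 CPM in the others. A small endothelial-like cluster led by Cyyr1, Cdh5 and Kdr (26 and 28 cells, median 1269 UMIs) also had a low core. Its core sums were 698 CPM (456 to 1022) and 967 CPM (673 to 1345), beside 2251 to 2654 CPM in the other endothelial-like clusters. The regulatory sums of this cluster were 1502 and 1519 CPM, beside 1709 to 2067 CPM in those.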
